A study of Macaca fascicularis with 2 samples.

Results

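The 9 genes of cartilage matrix proteins considered were listed by name, CILP, CILP2, CRTAC1, COMP, MATN1, MATN2, MATN3, MATN4 and PRG4. Of these, 8 were rows of the matrix of 21371 genes and are described here, and COMP was not analysed here. The cells came from 1 library prepared by TAS-seq, a single-cell method that reads the cDNA of cells captured on barcoded beads, in which articular cartilage (AC) and nucleus pulposus (NP) cells of 2 cynomolgus monkeys were pooled. The animals were wild type males, 3 years old, and the labels name no treatment. The label of the pool names 3 tissue samples, which by the paper are the AC and NP of 1 animal and the AC of the other. The cells, however, carried 4 surface tags, A951 to A954, which no source used here pairs with a tissue. Cells were dissociated enzymatically and sorted as live tagged cells.

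Of 5674 cells with a single tag, 5653 passed the limits on genes and mitochondrial reads. Notochordal cells (NCs) were defined as cells with at least 5 reads of KRT19 and at least 5 reads of TBXT, which gave 310 NCs, and the remaining 5343 cells are called other cells, of which 85 had 5 or more reads of only 1 of these genes. The NCs carried tag A951 in 67 cells, A952 in 236, A953 in 5 and A954 in 2, so that values of NCs under a tag are given mainly for A951 and A952. The other cells numbered 928, 889, 1372 and 2154 under A951 to A954. Depth was alike in both groups, with a median of 186370 reads and 4061 genes in NCs and of 199072 reads and 3819 genes in other cells. Levels are reads of a gene per 1000000 reads summed over the cells of a group (rpm), with 95% exact Poisson intervals, and shares of cells have 95% exact Clopper-Pearson intervals. The Poisson intervals treat reads as independent, but the reads include PCR copies, so they are too narrow even for counting error. Neither kind of interval covers differences between animals or libraries, because the cells come from 1 library. No test was made, since cells of a library are not replicates.

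Cartilage matrix consists of collagen fibrils and aggrecan joined by smaller glycoproteins. Matrilins (MATN1 to MATN4) and COMP, a thrombospondin, are such adaptors that bind collagens and aggrecan, CILP and its relative CILP2 are secreted proteins of the cartilage matrix, and CILP is known to bind growth factors. CRTAC1 is a secreted glycoprotein first described in chondrocytes, and PRG4 encodes lubricin, the boundary lubricant of joint surfaces, made by chondrocytes of the superficial zone and by synovial lining cells. Notochordal cells are remnants of the embryonic notochord that persist in the young NP, where they are marked by the transcription factor TBXT (brachyury) and by keratins.

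Markers of both groups were measured. All 6 notochordal markers that did not define NCs, namely CDH2, NCAM1, C3orf49, APOE, SRGN and NRN1, were at least 2-fold higher in NCs, from a log2 ratio of 4.33 for NCAM1 to 7.41 for C3orf49. The other cells had COL2A1 at 20072 rpm and COL9A1 at 5200 rpm, against 1269 rpm and 235 rpm in NCs. ACAN and SOX9 were higher in NCs, with log2 ratios of 1.86 and 1.69, although SOX9 was at 0.40 in A951 and 1.97 in A952, so these chondrocyte markers did not separate the groups in the direction of the collagens. Reads of notochordal markers that did not define NCs were also found in other cells, from 8.40% of them for NRN1 to 78.7% for APOE, so presence of a read in a cell did not by itself separate the groups.

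PRG4 was lower in NCs and was detected throughout. Every one of the 310 NCs and 5343 other cells had at least 1 PRG4 read, so presence of a read carried no information. The median NC had 171 rpm and the median other cell 5312 rpm. Under A951 the pooled level was 1302 rpm in NCs and 11796 rpm in other cells, and under A952 it was 431 rpm and 10820 rpm. Most NCs were narrowly spread, and the quartiles were 139 and 206 rpm under A951 and 139 and 203 rpm under A952, with medians of 171 rpm under both tags. A few NCs held most of the reads, since 4 of 310 accounted for 66.4% and 31 for 87.6% of PRG4 reads in NCs. Other cells ranged far more widely, from a 10th percentile of 179 rpm to a 90th percentile of 32585 rpm, so the other cells below that percentile overlapped the bulk of the NCs. The log2 ratio of NCs to other cells was -3.47 over all cells, -3.18 under A951 and -4.65 under A952. It was -4.24 over A951 and A952 together, and -4.39 when the 7 NCs of A953 and A954 were left out, since the 5 NCs of A953 held 37072 of the 75155 PRG4 reads in NCs.

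CILP had the lowest ratio of the genes over all tags, though not under A951, where CILP2 was lower, nor in the mean of log2(rpm + 1) per cell, where MATN3 was lower at -4.38 against -2.34 for CILP. Its level was 5.09 rpm (4.56 to 5.66) in NCs and 269 rpm (268 to 270) in other cells, a log2 ratio of -5.72. The ratio was -4.82 under A951, from 6.39 against 181 rpm, and -5.36 under A952, from 3.72 against 153 rpm. A CILP read was present in 38.7% of NCs and in 59.8% of other cells, but 5 or more reads in 3.23% against 32.2%. The difference between the groups thus lay in cells with many reads.

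CILP2 had 4.81 rpm in NCs and 80.6 rpm in other cells, a log2 ratio of -4.07. In A951 the NCs held 12 reads in all, or 0.983 rpm (0.508 to 1.72), against 74.3 rpm in other cells. In A952 they held 5.77 rpm against 72.9 rpm, and 4 of the 310 NCs accounted for 67.9% of all CILP2 reads in NCs. The ratio was therefore less firmly set in NCs than the interval of the summed reads conveys.

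CRTAC1 behaved differently under the tags. In A951 the NCs had 21.7 rpm (19.2 to 24.5) and the other cells 333 rpm, a log2 ratio of -3.94. In A952 the NCs had 117 rpm (114 to 120) and the other cells 285 rpm, a log2 ratio of -1.29. Of the A952 NCs, 47 of 236 (19.9%) held at least 100 rpm and the highest held 2425 rpm, whereas 2 of 67 A951 NCs (2.99%) did, with a maximum of 313 rpm. Among other cells the same limit was reached by 26.2% in A951 and 22.5% in A952. The ratio over all tags was -2.52, but over A951 and A952 alone it was -1.66, and other cells with at least 100 rpm numbered 643 in A953 and 999 in A954, which held few NCs, against 243 in A951 and 200 in A952. That restriction was chosen after the data were seen.

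Among the matrilins, MATN3 and MATN4 were far lower in NCs and MATN2 less so. MATN3 had 35.1 rpm in NCs and 425 rpm in other cells, a log2 ratio of -3.60 that was -2.08 in A951 and -5.18 in A952. Of all MATN3 reads in NCs, 72.6% lay in 4 cells, and the share of cells with 5 or more reads was 4.52% in NCs against 65.2% in other cells. MATN4 had 4.13 rpm against 54.3 rpm, a log2 ratio of -3.72, and was a gene of few cells in both groups, with a read in 8.06% of NCs and 20.7% of other cells. MATN2 had 51.6 rpm in NCs and 141 rpm in other cells. Its log2 ratio was -1.45, with -1.25 in A951 and -1.57 in A952. MATN1, a matrilin of tracheal and growth plate cartilage, was scarcely measured.

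MATN1 had a read in 4.85% of other cells (4.29 to 5.46) and in 3.87% of NCs (2.02 to 6.66), shares whose intervals overlap. The top 54 of the other cells, by MATN1 reads, held 84.6% of its reads there. In A951 the NCs had 8.69 rpm of MATN1 against 3.22 rpm in other cells, but 99 of their 106 reads came from 1 cell, and in A952 the order was the opposite, with 0.234 against 4.19 rpm. No direction is drawn for MATN1.

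**Figure D1:**
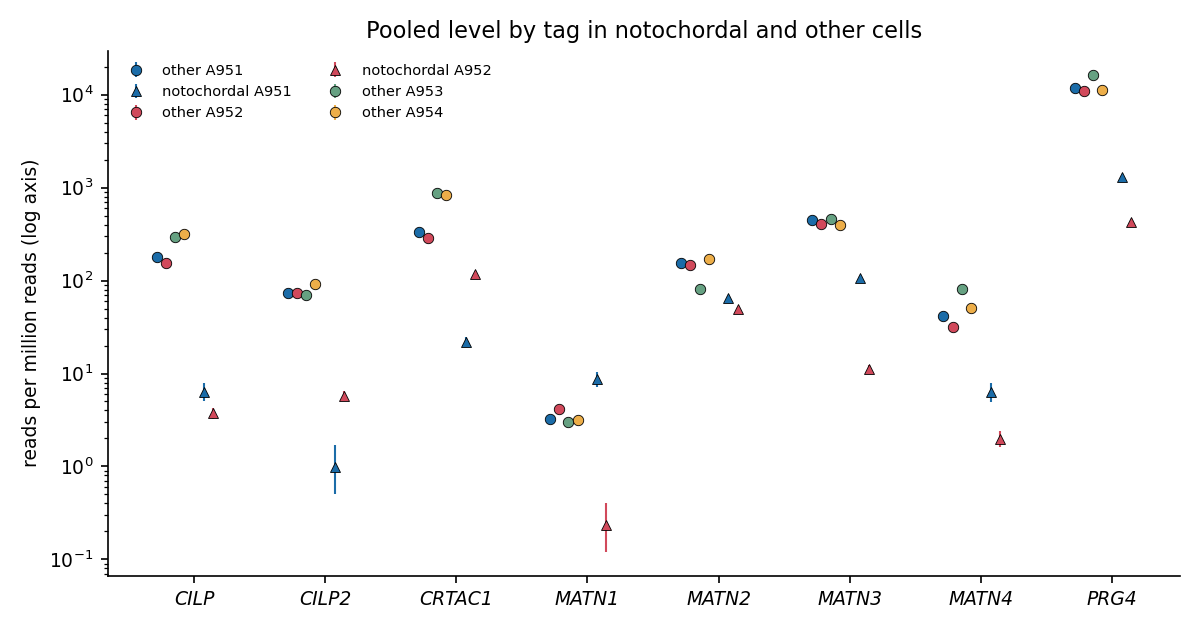
Pooled level of each gene in rpm (log axis) by tag, with circles for other cells and triangles for NCs. Bars are 95% Poisson intervals of the summed reads, often smaller than the symbols. NCs of A953 (5 cells) and A954 (2 cells) are left out. For all genes but MATN1 the triangles lie below the circles of the same color, and for CRTAC1 and MATN2 in A952 the gap is smaller than for CILP or PRG4.

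Across the matrix, 7 of the 8 genes had a read in at least 10% of the cells of 1 group, all but MATN1. All 7 were at least 2-fold lower in NCs, where 11.4% of the 9905 genes past this limit were, and none was 2-fold higher, where 24.2% of the genes were. MATN4 passed the detection limit only through the other cells, where it is higher, so its place in the count is partly set by that limit. The median log2 ratio of the 7 genes was -3.60, against 0.30 for all 9905 genes. All 7 were also at least 2-fold lower under A951 and under A952 separately, which held for 9.26% of the genes. With the mean of log2(rpm + 1) per cell the count was 6, since MATN4 was at -0.92, and with log2(rpm + 10) it was 5, since MATN2 (-0.86) and MATN4 (-0.53) were not past it. Without A952, which held most NCs, MATN3 was at -1.86, MATN4 at -2.32 and PRG4 at -1.84, all closer to 0, and CILP2 at -5.78.

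The level in NCs that held little PRG4 was examined separately, a split chosen after the data were seen. The 279 NCs at or below the 90th percentile of PRG4 in NCs (343 rpm) held PRG4 at 1.40% of its level over all 5653 cells (1.38 to 1.43). In the same cells CILP stood at 1.19% (1.02 to 1.38) of its own level over all cells, MATN3 at 1.54% (1.38 to 1.70), MATN4 at 1.13% (0.781 to 1.58) and CILP2 at 2.03% (1.64 to 2.50). The low value of PRG4 follows from the split, and the 31 cells left out held 1958 of the 2321 MATN3 reads, 239 of the 273 MATN4 reads and 227 of the 318 CILP2 reads in NCs. CRTAC1 stood at 15.7% (15.3 to 16.1) and MATN2 at 39.1% (37.7 to 40.5). Among cartilage genes outside the list, COL9A1 stood at 2.08%, COL2A1 at 4.05% and COL9A2 at 8.31%. THBS1 stood at 18.2%, HAPLN1 at 21.6% and COL11A1 at 23.0%, whereas ACAN and SOX9 stood at 336% and 301%. Reads from outside a cell cannot be told apart from low expression here.

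By tag, CRTAC1 stood at 2.23% of its level over all cells in the A951 cells and at 18.8% in the A952 cells. MATN2 stood at 52.7% in A951 and 36.0% in A952, and 8 of 67 and 29 of 236 NCs held at least 100 rpm of MATN2. In the reverse direction, C3orf49, a notochordal marker with a read in 32.6% of the 5258 cells with fewer than 5 reads of KRT19 and of TBXT, stood there at 2.04% of its level over all cells, and the other 5 markers between 5.20% (NRN1) and 45.7% (NCAM1). The 31 NCs above the 90th percentile of PRG4 held MATN3 at 61.1% of its level over all cells, MATN4 at 58.4%, CILP2 at 37.4%, CRTAC1 at 36.7%, MATN2 at 28.8% and CILP at 7.88%, besides PRG4 at 69.0%, which the split fixed. These values rested on few cells, since 1 NC held 200 CILP2 reads and 1 held 857 MATN3 reads. For CRTAC1, 1 NC of A953 held 1457 of the 1910 reads in the 31 cells, so its value rested mostly on that cell. All 5 NCs of A953 were among the 31 cells. The median depth of the 31 cells was 193100 reads against 184871 in the remaining NCs, with medians of 128 and 185 reads of KRT19. Whether some of these barcodes held more than 1 cell of the same tag was not tested.

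**Figure D2:**
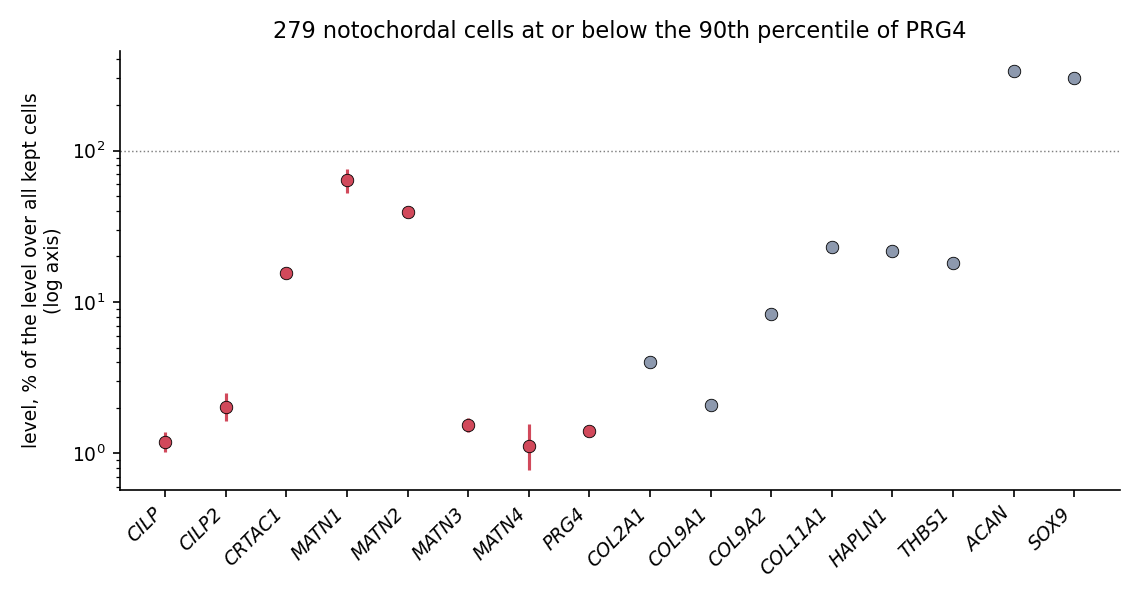
Level in the 279 NCs at or below the 90th percentile of PRG4, as a percentage of the level of the same gene over all 5653 cells (log axis), with 95% Poisson intervals of the summed reads. Red points are the 8 genes described and grey points other cartilage genes. CILP, CILP2, MATN3, MATN4 and PRG4 lie between 1.13% and 2.03%, CRTAC1 and MATN2 at 15.7% and 39.1%, and ACAN and SOX9 above 100%.

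The few NCs of A953 and A954 are given singly. The 5 NCs of A953 had PRG4 at 16346 rpm pooled, next to 16396 rpm in the other cells of that tag. Singly, 3 of them held 13681, 19883 and 24115 rpm and the remaining ones 685 and 740 rpm. Those 3 cells had 559108, 867991 and 494207 reads in the same order, each more than the 186370 of the median NC, and each had 57 or more reads of KRT19 and 230 or more of TBXT. The 2 NCs of A954 held 88.8 and 395 rpm of PRG4 and no MATN3 read, far below the 11152 and 398 rpm of the other cells of that tag. The 3 cells of A953 with high PRG4 lay far above the median NC of A951 and A952. The highest NCs of A951 and A952 held 21016 and 19505 rpm, so the ranges overlapped.

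Among the other cells the 4 tags differed for some of the genes. CRTAC1 had the widest range, with 872 rpm in A953, 835 in A954, 333 in A951 and 285 in A952, a 3.06-fold difference from highest to lowest. The tags formed pairs, A953 with A954 and A951 with A952, and within each pair the levels were close. MATN4 ranged 2.53-fold, from 80.4 rpm in A953 over 50.6 in A954 and 41.8 in A951 to 31.8 in A952. CILP was 320 rpm in A954, 297 in A953, 181 in A951 and 153 in A952, a 2.09-fold range in the same pairs as CRTAC1. MATN2 broke this order, with 169 rpm in A954, 153 in A951, 148 in A952 and 81.3 in A953, a 2.08-fold range in which A953 alone stood apart.

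The remaining genes were more even between tags in pooled level. PRG4 was 16396 rpm in A953 and between 10820 and 11796 rpm in the other tags, a 1.52-fold range. With the mean of log2(rpm + 1) per cell, however, the range of PRG4 was 1.13 on the log2 scale, past 2-fold. MATN3 lay between 398 and 463 rpm and CILP2 between 70.4 and 91.4 rpm, ranges of 1.16-fold and 1.30-fold. Thus 4 of the 7 genes measured in at least 10% of the other cells differed 2-fold or more between the highest and the lowest tag, where 9.13% of 9307 genes did. The call rested on single tags for 3 of them. Without A952, CILP and MATN4 fell under 2-fold (log2 ranges of 0.83 and 0.94), without A953 MATN2 and MATN4 did (0.19 and 0.67), and without A954 CILP and MATN2 did (0.95 and 0.91). Within the high tertile CILP was also under 2-fold, at 0.79. CRTAC1 stayed past 2-fold without any one tag, between 1.39 and 1.62 on the log2 scale. Since tags could not be paired with tissues, a difference between tags may be one of tissue, animal or handling, and these cannot be told apart.

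The number of genes detected in a cell is a measure of depth and of RNA content. The cells were split in tertiles at 3273 and 4386 genes, which gave 1803, 1774 and 1766 other cells with medians of 105560, 200250 and 364583 reads. None of the 7 genes differed 2-fold in pooled level between the low and the high tertile, where 1.6% of the 10656 genes were at least 2-fold lower in the low tertile and 1.38% at least 2-fold higher. PRG4 was nearly flat, at 12923 rpm in the low, 11483 in the middle and 13017 in the high tertile. CILP had the largest contrast, with 204, 190 and 324 rpm, a log2 ratio of low to high of -0.67, followed by MATN4 with 45.2, 41.7 and 62.8 rpm and a ratio of -0.48. MATN3 climbed from 371 over 397 to 453 rpm. CRTAC1 had 669, 556 and 758 rpm, MATN2 126, 145 and 142 rpm and CILP2 79.6, 73.3 and 84.5 rpm.

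The share of cells with a read rose with the tertile for all these genes but PRG4. A CILP read was found in 40.2%, 58.8% and 80.7% of the cells from the low to the high tertile, a MATN3 read in 63.5%, 85.1% and 95.6%, and a MATN4 read in 11.1%, 17.9% and 33.1%. After each cell was thinned to 50000 reads, which left out 196 other cells, all in the low tertile, and 11 NCs, the shares still rose, to 32.5%, 36.7% and 54.0% for CILP, 59.1%, 73.0% and 84.5% for MATN3 and 9.27%, 12.8% and 22.5% for MATN4. A higher share in the high tertile is favoured by the split itself, which was made on the number of genes with a read before the cells were thinned, so no change is read from these shares. A measure that gives each cell equal weight on a log scale, the mean of log2(rpm + 1), put 6 of the 7 genes at least 2-fold lower in the low tertile, all but PRG4, from -1.04 for MATN4 to -2.47 for MATN3. With log2(rpm + 10) this held for MATN3 (-1.49) and CILP (-1.20). The share of all genes is given for pooled levels only, so neither count is read as a result about the 7 genes.

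The tertile contrast also depended on the tag. CILP was lower in the low tertile by a log2 ratio of -1.45 in A951 and -1.12 in A952, by -0.58 in A954 and by -0.02 in A953. CRTAC1 was lower in the low tertile in A951 (-0.59) and A952 (-0.89), equal in A954 (0.01) and higher in A953 (0.29). These are the tags that formed pairs in the levels of the same genes. The differences between tags were not tested.

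Relations between the genes were described within the other cells. Pearson correlations were computed across 5343 cells on log2(rpm + 1), after the mean of each tag and tertile was subtracted, and the cells share 1 library and differ in depth within a tertile. Of the 21 pairs of the 7 genes, 3 had r of 0.2 or more, where 0.00856% of the 43305471 pairs of genes did, and 1 had r of -0.2 or less, where 0.0014% did. The strongest pair was CRTAC1 and PRG4 with r = 0.37, from 0.29 in A953 to 0.43 in A954. CILP and CRTAC1 had r = 0.24, but this differed between tags, with 0.36 in A953, 0.27 in A954, 0.09 in A951 and 0.06 in A952. CILP and MATN4 had r = 0.23, from 0.13 in A953 to 0.30 in A954.

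The negative pair was MATN2 and PRG4 with r = -0.30, between -0.37 in A954 and -0.22 in A952. MATN2 was also negative with CRTAC1 (-0.18), and it was between 0.05 and 0.14 with CILP, MATN3 and CILP2. CILP2 and MATN3 had r = 0.19. CILP and CILP2 had r = 0.13, MATN2 and MATN3 0.10, MATN3 and MATN4 0.09, and MATN2 and MATN4 -0.02. In the 310 NCs alone, the pairs at 0.2 or more were MATN3 and MATN4 (0.33), MATN3 and PRG4 (0.31) and MATN4 and PRG4 (0.27). There CRTAC1 and PRG4 had r = -0.035 and CILP and CILP2 r = -0.14. MATN4 had a read in only 8.06% of NCs. The top 4 NCs of each gene held 86.1% of MATN4, 72.6% of MATN3 and 66.4% of PRG4 reads in NCs. The r without these cells and the share over all pairs of genes in NCs were not computed.

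**Figure D3:**
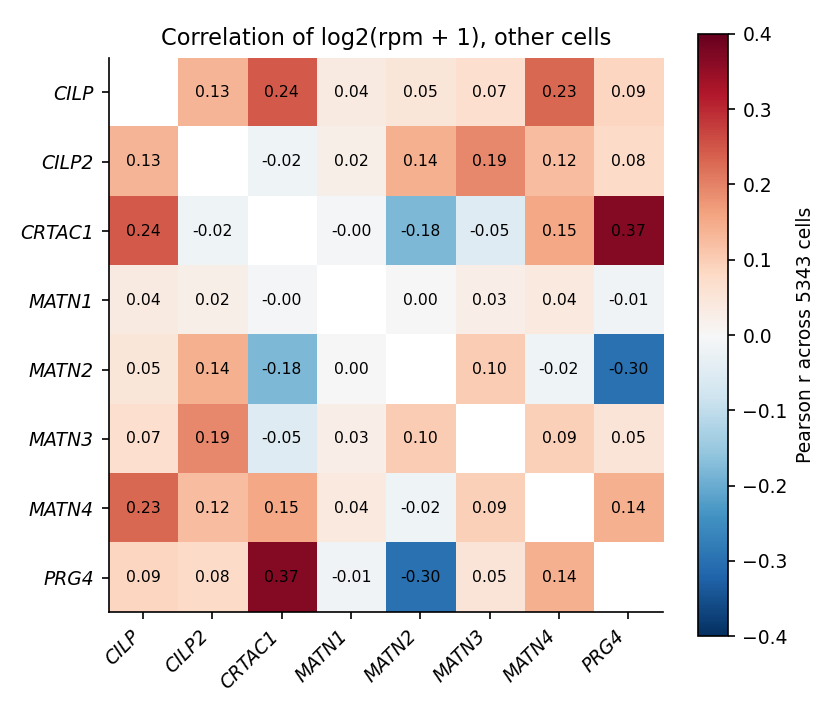
Pearson r of log2(rpm + 1) across the 5343 other cells for each pair of genes, after the mean of each tag and tertile was subtracted. Red is positive and blue negative. CRTAC1 with PRG4 (0.37) and MATN2 with PRG4 (-0.30) are the outermost values, and the row of MATN1 is near 0.

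The pairs with PRG4 were followed over its range by splitting the other cells, within tag and tertile, in 5 groups of rising PRG4 level. From the first to the fifth group the pooled PRG4 level rose from 255 to 40669 rpm. MATN2 fell from 238 over 200, 139 and 85.6 to 41.6 rpm, and the share of cells with a MATN2 read fell from 76.0% to 51.2%. CRTAC1 rose from 149 over 455, 624 and 951.8 to 1259 rpm. Both directions were seen under each of the 4 tags. MATN2 went from 238 to 49.9 rpm in A951, from 226 to 80.8 in A952, from 156 to 20.4 in A953 and from 292 to 38.3 in A954. CRTAC1 went from 23.3 to 787 rpm in A951, from 59.4 to 762 in A952, from 273 to 1315 in A953 and from 153 to 1547 in A954.

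MATN4 was lowest in the first group, with 22.0 rpm, and between 66.8 and 71.2 rpm in the upper 3 groups. Under A951 and A952 it was lowest in the second group, with 11.4 and 11.6 rpm, and in A952 it was 59.5 rpm in the fourth group and 34.4 rpm in the fifth. CILP had no steady course, with 330, 315, 195, 219 and 283 rpm. MATN3 stayed between 379 and 472 rpm and CILP2 between 72.0 and 86.5 rpm. Under single tags these ranges were wider, and in A952 CILP2 lay between 33.7 and 99.3 rpm and MATN3 between 292 and 506 rpm, with 46.2 and 405 rpm in the first group and 86.3 and 449.5 rpm in the fifth. Cells with abundant lubricin transcripts held more CRTAC1 and less MATN2 under each tag.

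**Figure D4:**
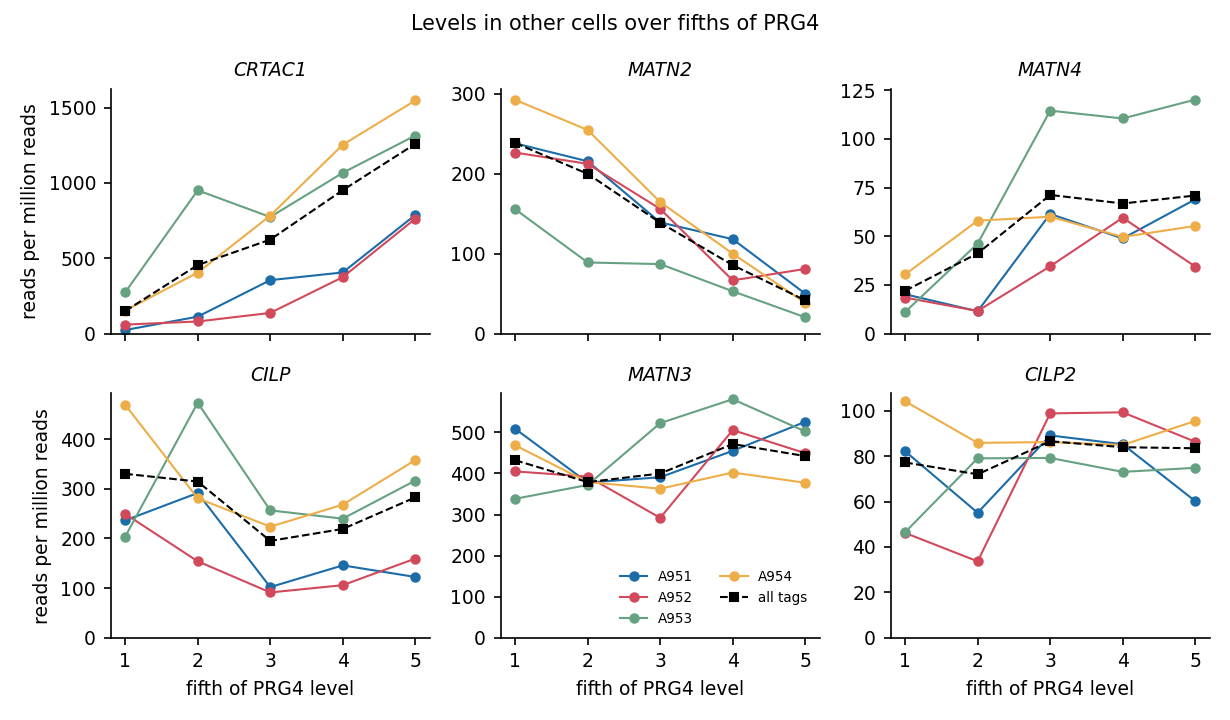
Pooled level in rpm of 6 genes in other cells over 5 groups of rising PRG4 level, cut within tag and tertile. Colored lines are the 4 tags and the dashed black line all tags. CRTAC1 rises (149 to 1259 rpm over all tags) and MATN2 falls (238 to 41.6 rpm), while MATN3 and CILP2 show no steady course.

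Genes whose pattern was most like each of the 7 genes were taken as the 3 with the highest r of the same kind among 9306 further genes. CRTAC1 was most like ASPN (r = 0.46), which encodes asporin, FMOD (0.43), which encodes fibromodulin, and SEMA3D (0.38), a semaphorin. CILP was most like ASPN (0.32) and FMOD (0.31) too, followed by TGFBI (0.26). PRG4 was most like SULF2 (0.43), FMOD (0.42) and SEMA3A (0.42). FMOD was thus among the 3 genes most like CRTAC1, CILP and PRG4, although these were only weakly alike in the case of CILP and PRG4 (r = 0.09).

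MATN3 was most like COL2A1 (0.37), COL9A1 (0.36) and SPARC (0.34), and CILP2 like COL2A1 (0.32), COL3A1 (0.32) and SPARC (0.29). COL2A1 and COL9A1 encode chains of the main fibrillar collagen of cartilage and of the collagen on its surface. MATN2 was most like SERPINE2 (0.31), CNMD (0.29), which encodes chondromodulin, and CHAD (0.27), which encodes chondroadherin. MATN4 had the weakest partners, CILP (0.23), COL3A1 (0.23) and TGFBI (0.20). ASPN, at a log2 ratio of -6.27, and COL9A1, at -4.46, were far lower in NCs, while FMOD, at 0.38, and TGFBI, at 1.08, were not.

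Further genes of the same matrix were examined in NCs from lists. Of the 4 thrombospondin relatives of COMP, 3 were at least 2-fold lower in NCs, THBS1 (-2.51), THBS3 (-3.92) and THBS4 (-4.94), against 11.4% of all 9905 genes, and THBS2 was higher (3.40), with 223 rpm in NCs and 21.1 rpm in other cells. The median of the list was -3.22, against 0.30 for all genes. Of 7 measured genes of the collagen and aggrecan network, 5 were lower, COL2A1, COL9A1, COL9A2, COL11A1 and HAPLN1, from -2.04 to -4.46, again beside 11.4% of all genes. ACAN, the aggrecan core protein, was higher (1.86), as were 24.2% of all genes, and FN1, fibronectin, was at -0.29.

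Of the 7 genes named beside PRG4 for the superficial zone, 4 were at least 2-fold lower in NCs, CLU (-1.51), ERG (-3.35), ABI3BP (-1.36) and VIT (-3.56), and TPPP3 (2.07) and DKK3 (5.15) were higher. In A951 alone ABI3BP (-0.42) and TPPP3 (0.995) were within 2-fold. Over all genes the shares were 11.4% and 24.2%, and the latter is near the share of this list that was higher. CREB5, a transcription factor of PRG4-expressing chondrocytes, was at -0.04. Of the 6 growth factor genes tied to CILP that passed the detection limit, TGFB1, TGFB2, TGFB3 and TGFBR1 were lower, from -1.81 to -3.23, beside 11.4% of all genes, TGFBR2 was at -0.62 (-1.24 in A951 and -0.20 in A952) and IGF1R, the receptor of insulin-like growth factor, was higher (2.44). IGF1 itself had a read in 6.44% of other cells and did not pass the limit. Of the chondrocyte factors, SOX9 was higher over all cells (1.69) but within 2-fold in A951 (0.40), and SOX5 (-0.30) and SOX6 (0.53) were within 2-fold.

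**Figure D5:**
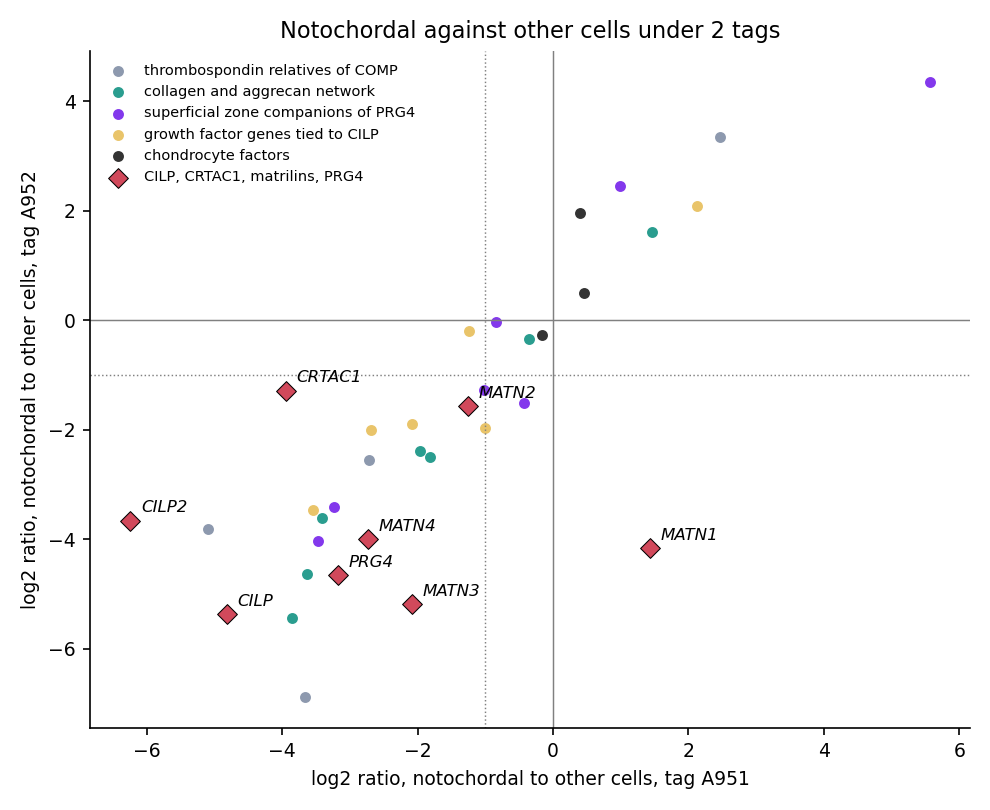
Log2 ratio of NCs to other cells under A951 (horizontal) and A952 (vertical) for the 8 genes (red diamonds, named) and for the list genes that passed the detection limit (points colored by list). Dotted lines mark a 2-fold lower level. All named genes but MATN1 lie in the lower left, at or past 2-fold lower under both tags, and MATN1 is at 1.43 and -4.16.

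Markers of other cell types were measured in the same groups. The 3 endothelial markers summed to 2.80 rpm in NCs and 2.15 rpm in other cells with VWF the most abundant, and the 3 leukocyte markers to 16.2 and 18.8 rpm with CD68 the most abundant. The 2 measured tendon markers summed to 1.54 and 2.54 rpm, led by MKX, and the bone markers to 3384 and 848 rpm, nearly all SPP1. SPP1 was within 2-fold in A951, at a log2 ratio of 0.88, and at 2.17 in A952. IBSP (0.575 against 30.0 rpm) and BGLAP (3.07 against 19.7 rpm) were lower in NCs. The smooth muscle markers summed to 80.1 rpm in NCs and 11.7 rpm in other cells, led by ACTA2. This order held in A952, with 101 and 11.3 rpm, but was the opposite in A951, with 5.82 and 13.5 rpm. The synovial lining also makes PRG4, and its 3 measured markers, CD55, PDPN and THY1, summed to 477 rpm in NCs and 3899 rpm in other cells, led by CD55. They moved with PRG4 between the groups, but CD55 had a read in 99.8% of other cells, and the part of synovial cells in the PRG4 level was not tested. No listed marker was at 0 in either group. Red cell markers, SCX and HAS1 were not analysed here.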

How the data were processed

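Cells of the pooled gene expression library were analysed, and the tag library was used only through the tag in each cell's name. The authors aligned reads with HISAT2 2.2.1 and assigned them to genes with featureCounts 2.0.2 (versions from the submitters' processing notes) and velocyto, and deposited whole-number read counts per gene and cell, with PCR copies and without normalization. The genome build is not given in the sources used here, so no coordinates are printed. Of 5723 cell columns, 42 marked as doublets and 7 without a detected tag were left out. A further matrix with 1358 cell columns, which the labels do not list, was not used. Doublets within a tag were not removed.

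Cells with 200 to 9000 genes and under 5% mitochondrial reads over 13 genes were kept. Pooled rpm values, shares and correlations came from numpy 2.4.6, pandas 2.3.3 and scipy 1.17.1 (Python 3.11.15). Groups below 3 reads of a gene were given 3 reads when a ratio was taken. A gene entered a count if at least 10% of the cells of 1 group had a read. Named were the listed genes, 5 lists of matrix and regulatory genes, marker lists and the 3 genes most like each. The genes and lists were chosen with earlier results of these data known. On simulated data, the sign of the ratio of NCs to other cells was recovered for 100% of 200 changed genes among 9307. All planted changes were past 2-fold, and tag differences, reads from outside a cell and genes held by few cells were not simulated. The simulation therefore checks the calculation only and does not bear on the ratios reported. Alternatives were no limits on cells, KRT19 and TBXT reads added together, each tag left out, thinning to 50000 reads, other averages, no detection filter, tertiles of reads, and other forms of r.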

Additional observations from a re-analysis of the deposited data

Results flagged for a closer look

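For 5 of the 8 genes the ratio of the low to the high tertile of genes detected had opposite signs under different tags, and none of these differences was tested. CRTAC1 was at a log2 ratio of -0.89 in A952 and 0.29 in A953. CILP2 was at -0.50 in A953 and 0.32 in A951. MATN2 was at -0.63 in A951 and 0.10 in A954. PRG4 lay between -0.11 in A952 and 0.08 in A953, and MATN1, with few reads, was at -1.76 in A951 and 2.35 in A952. MATN1 had opposite signs for NCs against other cells, 1.43 in A951 and -4.16 in A952, where 1 cell held 99 of the 106 reads in the A951 NCs. This difference was not tested either.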

How the results depend on the processing

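All 98 alternative ratios of NCs to other cells for the 7 genes were below 0. They include the ratios without the detection filter, which equal the main ratios by construction. The count of 7 genes at least 2-fold lower in NCs was 6 with the mean of log2(rpm + 1), 5 with that of log2(rpm + 10), and 7 otherwise. For low against high tertile, the count of genes at least 2-fold lower was 0. It was 6 with the mean of log2(rpm + 1), 2 with log2(rpm + 10), 1 within A951 and 1 within A952 (CILP in both). The share of all genes is given for pooled levels over all tags only, so these alternative counts are not read as results about the genes. The count of 4 genes past 2-fold between tags was 2 without A952, 2 without A953 and 2 without A954. It was also 2 with log2(rpm + 10), where these were CRTAC1 and PRG4. Within the high tertile CILP fell under 2-fold between tags (log2 range of 0.79). The count of 1 pair with r of -0.2 or less was 0 in NCs alone, and 2 with log2(rpm + 10), with cells holding a read of both genes, and within the high tertile and A954, which were chosen after the data were seen. Pairs with r of 0.2 or more numbered 3 and lay between 2 and 4 under the alternatives. There were, for example, 2 within A951 and 4 without centring and within A954. The pairs also changed, since CILP and MATN4 had r = 0.13 in A953 and 0.17 in the low tertile. CILP2 and MATN3 had r = 0.25 in A953 and 0.21 in the middle tertile. In NCs alone r was negligible for CILP and CRTAC1 (-0.0217) and for CRTAC1 and PRG4 (-0.0351), so these relations were not seen there. Among pairs under 0.2, CILP and CILP2 went from 0.13 to -0.14 and MATN2 and MATN3 from 0.10 to -0.027. The cause was not tested. The few cells with a read limit MATN1 and MATN4, and the number of cells limits the values of the 7 NCs in A953 and A954.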
